A study of Mus musculus with 124 samples.

Results

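The RNA levels of 10 circadian clock genes were followed in 3 materials of a mouse study of hCG (human chorionic gonadotropin), a hormone given to set off ovulation. The genes were taken by symbol: the activators Arntl (also called Bmal1) and Clock, the period genes Per1, Per2 and Per3, the cryptochromes Cry1 and Cry2, the nuclear receptors Nr1d1 and Nr1d2 (REV-ERB alpha and beta), and the output factor Dbp. All 10 were found in each of the 3 tables, among 35121 gene symbols in all. The hCG females were in natural estrus and received 7.5 IU of hCG into the peritoneum, with no priming hormone. For oocytes, the Ctrl females were also in estrus, received no hCG and were caged with a vasectomised male. How the mothers of blastocysts and offspring were mated is not in the labels. Metaphase II oocytes were collected from the oviduct between 8 and 9 in the morning, 14 h after the injection in the hCG group and after a vaginal plug in the Ctrl group, so mating was not matched, and neither was a known time since ovulation. Hyaluronidase removed their cumulus cells. Blastocysts came from the uterus at day E3.5 of development. The dorsal dentate gyrus (dDG), a part of the hippocampus rich in granule neurons, came from mice of 8 weeks given tribromoethanol at 350 mg/kg and perfused with buffer, and neither the hour of its dissection nor the sex of these mice is in the labels. All 12 dDG libraries held RNA of 4 Y-linked genes (107 to 121 CPM summed in Ctrl, 116 to 132 in hCG, where CPM are counts scaled to the library total), with Xist at 0.212 CPM or less. Each group had 6 oocyte, 28 blastocyst and 6 dDG RNA libraries, and the labels do not say which libraries of 1 group came from separate mothers or litters, so p-values measure the spread between these libraries.

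The circadian clock is a feedback loop of transcription. ARNTL and CLOCK proteins bind E-box motifs and switch on the Per and Cry genes, Nr1d1, Nr1d2 and Dbp. PER and CRY proteins then repress ARNTL and CLOCK, the REV-ERB proteins repress Arntl, and DBP acts on other genes through D-box motifs. In a running clock Arntl RNA peaks in the opposite phase to Dbp, Nr1d1 and the Per genes, and most tissues, the hippocampus among them, carry such a rhythm.

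The promoter sequences of the 3 members that differed between groups in the dDG are shown for the clock motifs they hold. They come from RefSeq on build GRCm38.p6, which had entries for 9 of the 10 members (13 entries, none for Per2). Each entry was read over the 250 bases before the transcript start, on both strands. Per1 lies on chr11:69095108-69109965, and the window at chr11:69098699-69098848 (plus strand) runs from 250 to 101 bases before the start of its first entry. Per3 lies on chr4:150997018-151044707, and the window at chr4:151044766-151044915 (minus strand) covers the same distances. Nr1d1 lies on chr11:98767932-98775377, and its window at chr11:98775378-98775527 (minus strand) holds the 150 bases before the start. Capitals mark the motifs found, and every sequence reads 5′ to 3′ along the gene.
Per1: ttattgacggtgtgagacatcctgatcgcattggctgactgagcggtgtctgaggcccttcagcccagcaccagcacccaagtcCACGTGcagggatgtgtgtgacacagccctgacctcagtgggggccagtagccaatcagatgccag
Per3: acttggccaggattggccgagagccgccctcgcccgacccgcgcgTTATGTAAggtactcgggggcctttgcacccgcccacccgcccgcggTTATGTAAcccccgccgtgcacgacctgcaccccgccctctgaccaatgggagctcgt
Nr1d1: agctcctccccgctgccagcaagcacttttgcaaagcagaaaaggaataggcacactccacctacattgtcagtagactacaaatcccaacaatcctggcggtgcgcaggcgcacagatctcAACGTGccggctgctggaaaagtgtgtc

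The Per1 window holds an E-box, CACGTG, that begins 166 bases before the start. The same motif stands 60 bases before the start of Cry1, and 6.02% of all 32851 promoters held it. The capitals in Per3 are copies of the D-box TTATGTAA, 205 and 158 bases before the start. The exact letters searched, TTATGTAA or TTACGTAA, were in 0.931% of all promoters and in none of the other 8 members with an entry. The first Per1 entry holds the near variant TTATGCAA, closer to the start than the window shown. That variant was not searched, and its share of all promoters was not counted. The capitals in Nr1d1 are the E-box variant CACGTT read on the other strand, 28 bases before the start. Cry1 and Cry2 held this variant too, 79 and 166 bases before the start, and its share of all promoters was 3.85%. The exact letters of the cAMP response element TGACGTCA (1.55% of promoters) were not found in the bases read of the 13 entries. Nor were those of the ROR element core, searched as TAGGTCA or TGGGTCA (5.38%). A match describes the letters only, and not a site in use. An absence covers only these exact letters within the bases read. Variant letters, and sites cut by or lying past the window edge, were not searched. The absence therefore does not show that a gene, Arntl among them, lacks such an element.

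The libraries held 14991582 to 17859654 estimated counts in the dDG, 2379861 to 6924189 counts in oocytes, and about 3043231 to 10859379 reads in blastocysts as estimated from the steps of the deposited values. Defining markers were checked against the labels. The oocyte gene Gdf9 averaged 3991 CPM in Ctrl and 3663 in hCG oocytes, and the trophectoderm gene Cdx2 averaged 35.8 and 35.4 in blastocysts. Not all markers were level between groups. Of 4 oocyte markers, Zp3 and Mos were called lower in hCG oocytes, as were 2.67% of all genes tested there. All 4 had a log2 fold change below 0 (median -0.55). Of 4 inner cell mass markers, Nanog was called higher in hCG blastocysts, as were 8.72% of all genes tested there. In the dDG the granule neuron gene Prox1 averaged 117 ± 14.1 CPM in Ctrl and 149 ± 19.1 in hCG (SD, n = 6), with Zp3, another oocyte marker, and Cdx2 at 0. Cumulus and granulosa markers summed to at most 0.655 CPM in Ctrl and 1.497 in hCG oocytes, with Fshr at 0. A single dDG library stood apart: in hCG replicate 6 the 4 choroid plexus markers summed to 9524 CPM, against 28.4 to 100 in Ctrl libraries and as little as 27.7 in hCG libraries. In blastocysts, hCG replicates 1, 3, 4, 22 and 23 held both Xist (65.5 to 156 CPM) and RNA of 4 Y-linked genes (120 to 164 CPM summed), while in each of the other 51 libraries the lower of the 2 was at most 22.1 CPM. Levels below are CPM, scaled with TMM factors. Gene lengths were not used, so levels are compared between groups and not between genes.

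In the offspring dDG, Per3 RNA was higher in hCG than in Ctrl, while Nr1d1 and Per1 were lower. The changes were modest: Per3 was 1.35-fold higher, Nr1d1 1.22-fold lower and Per1 1.27-fold lower. The other 7 members did not pass the test (edgeR's quasi-likelihood test, Benjamini-Hochberg adjusted p under 0.05 over all genes). Of all 13874 genes tested, 4.67% were called higher and 3.19% lower, 7.86% in either direction, so 3 calls among 10 genes stand beside a background of that size. The 10 genes were chosen with earlier results of these data known, so this count beside the background is no test of the set. The log2 fold change (hCG over Ctrl) was below 0 for 8 of the 10 members, with a median of -0.10, and for 48.9% of all genes, whose median was 0.00497. All 10 members were detected in all 12 dDG libraries, so none had to be left out.

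**Figure D1:**
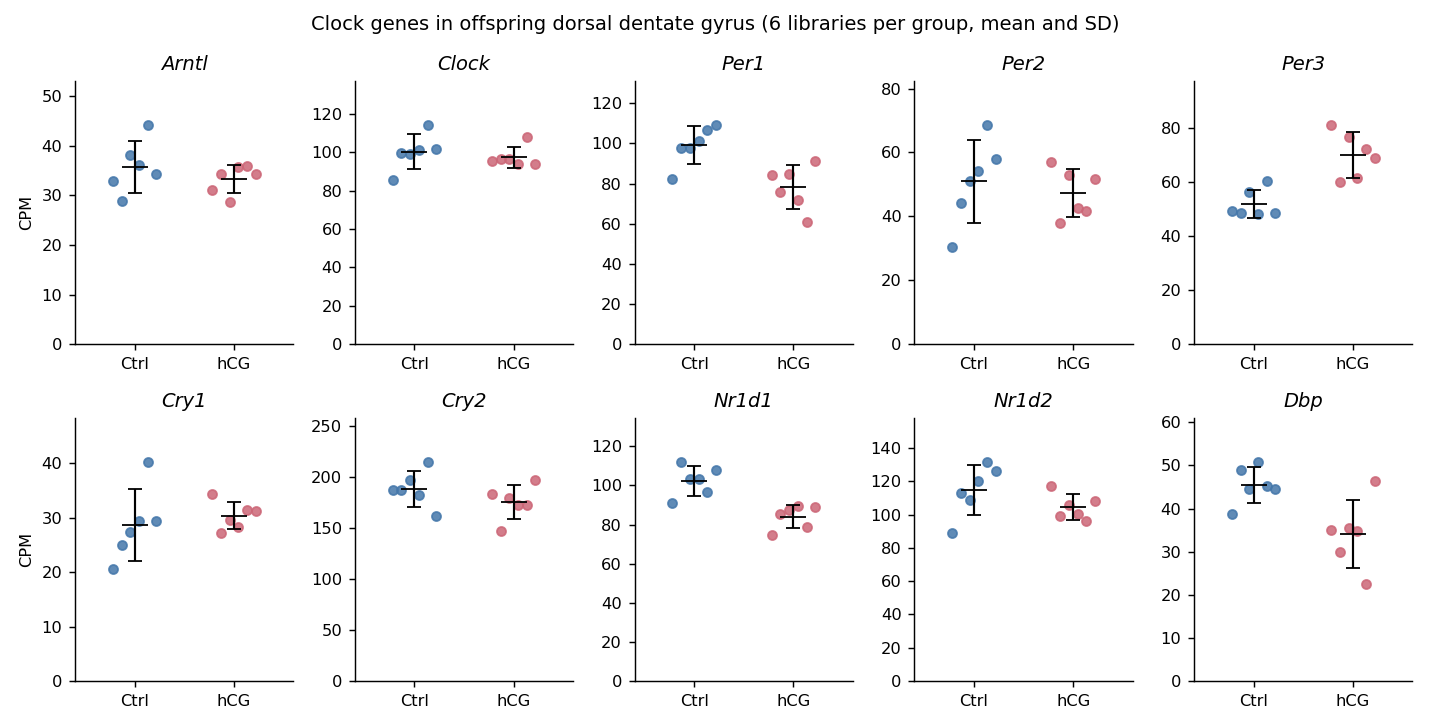
CPM of the 10 clock genes in each dDG library, Ctrl (blue) and hCG (red), with 1 point per library and the mean and SD of 6 libraries in black; every vertical axis starts at 0. The hCG libraries lie below all Ctrl libraries for Nr1d1 only, and the Per3 points of hCG (59.9 to 81.1) lie mostly above those of Ctrl (48.2 to 60.5).

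The activators showed no called difference. Arntl, the partner that gives the loop its rhythm, ranged from 28.8 through a median of 35.2 to 44.2 CPM in Ctrl and from 28.7 through 34.3 to 35.9 in hCG. Its log2 fold change was -0.10 ± 0.09 (SE), with an approximate 95% interval from -0.28 to 0.08 (edgeR adjusted p = 0.547). Clock, the histone acetyltransferase subunit that pairs with ARNTL, ranged from 85.8 (median 100.3) to 114 CPM in Ctrl and from 94.0 (median 95.9) to 108 in hCG. For both genes the hCG libraries lay inside or just at the edge of the Ctrl range. The Clock difference was -0.04 ± 0.06, interval -0.16 to 0.08 (edgeR adjusted p = 0.738).

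The 3 period genes, which encode repressors of the loop, did not move together. Per1 ranged from 82.3 (median 99.5) to 109 CPM in Ctrl and from 61.1 (median 80.0) to 91.4 in hCG. All 6 hCG libraries were below the Ctrl median, and the groups overlapped only through Ctrl replicate 1, which was lower than 3 of the hCG libraries. Per1 fell by 0.34 ± 0.09 on the log2 scale (edgeR adjusted p = 0.0329). This call was kept in 9 of 16 alternatives and ended when Ctrl replicate 2, 3, 4 or 6 or hCG replicate 2 or 4 was left out, with an adjusted p of up to 0.0789 (0.0680 with the replicate number as a block). In this bulk tissue, fewer cells of a type and less RNA per cell cannot be told apart.

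Per3, the period gene least needed for the rhythm itself, ranged from 48.2 (median 49.0) to 60.5 CPM in Ctrl and from 59.9 (median 70.6) to 81.1 in hCG. Every hCG library was above the Ctrl median, and only the lowest hCG library, replicate 2, fell within the Ctrl range, below Ctrl replicate 5. Its log2 fold change was 0.43 ± 0.08 (edgeR adjusted p = 0.00625). It was called in all 16 alternatives, between 0.38 and 0.48. Per2, a repressor whose RNA responds directly to stimuli, ranged from 30.3 (median 52.6) to 68.6 CPM in Ctrl and from 38.0 (median 47.2) to 57.1 in hCG. The hCG values of Per2 lay wholly inside the wide Ctrl range. Its log2 fold change of -0.11 ± 0.17 had an interval from -0.43 to 0.22 (edgeR adjusted p = 0.746), wide enough to hold a change of the size seen for Per1.

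The cryptochromes, the other arm of the repressor complex, were not called. Cry1 ranged from 20.7 (median 28.4) to 40.3 CPM in Ctrl and from 27.3 (median 30.5) to 34.3 in hCG, a log2 fold change of 0.09 ± 0.12 (edgeR adjusted p = 0.711). Cry2 ranged from 161 (median 187) to 215 CPM in Ctrl and from 147 (median 176) to 196 in hCG, a log2 fold change of -0.10 ± 0.07 (edgeR adjusted p = 0.420). Both pairs of groups overlapped over most of their range.

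Nr1d1, the repressor that shuts down Arntl, ranged from 91.0 (median 103) to 112 CPM in Ctrl and from 74.7 (median 86.2) to 89.5 in hCG. The highest hCG library was below the lowest Ctrl library, which made Nr1d1 the 1 member of 10 whose groups did not overlap; 4.33% of all genes tested in the dDG had such groups. Nr1d1 fell by 0.28 ± 0.06 on the log2 scale (edgeR adjusted p = 0.0133), and was called in all 16 alternatives, between -0.31 and -0.25. Nr1d1 overlaps the thyroid hormone receptor gene Thra, and whether reads were counted by strand is not given in the sources used here. Thra averaged 745 ± 61.3 CPM in Ctrl and 672 ± 39.3 in hCG (SD, n = 6), a log2 fold change of -0.15 ± 0.06 that was not called (edgeR adjusted p = 0.143). The part of Thra reads in the Nr1d1 result was not tested.

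Nr1d2, the close relative of Nr1d1, ranged from 89.0 (median 116) to 132 CPM in Ctrl and from 96.2 (median 103) to 117 in hCG. Here 5 of 6 hCG libraries were below the Ctrl median and all 6 were inside the Ctrl range. This gave a log2 fold change of -0.13 ± 0.08, interval -0.29 to 0.03 (edgeR adjusted p = 0.331). Dbp, the output factor whose RNA swings widely over the day, ranged from 38.7 (median 45.0) to 50.9 CPM in Ctrl and from 22.5 (median 34.9) to 46.5 in hCG. Of the hCG libraries, 5 were below every Ctrl library and replicate 6, the one with choroid plexus markers, was above 4 of the 6 Ctrl libraries. The log2 fold change of Dbp was -0.42 ± 0.13 and missed the threshold (edgeR adjusted p = 0.0730). It passed without hCG replicate 6 (-0.53, adjusted p = 0.0132) and with DESeq2 (-0.42, adjusted p = 0.0202). Dbp overlaps Sphk2 and Per3 overlaps Uts2 on the opposite strand, with the same limit on counting.

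Some dDG libraries were at the low or high end of their group for several members. Ctrl replicate 1 was the lowest Ctrl library for 7 of 10 members, and Ctrl replicate 5 the highest for 7. Among hCG libraries, replicate 2 was lowest for 4 members and replicate 5 for 3, Per1 (61.1 CPM) and Dbp (22.5 CPM) among them, while replicate 6 was highest for Per1 (91.4 CPM) and Dbp (46.5 CPM). Per1 and Dbp thus had the same lowest and the same highest hCG library. These ends were counted for the members only, so whether all genes shifted in these libraries was not tested.

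Arntl was set against 5 genes that it drives, within each dDG group, to see whether libraries fell at opposite phases. None of the 10 relations held after Benjamini-Hochberg adjustment. In Ctrl, the largest was Arntl against Per3 with Pearson r = 0.83 (exact permutation p = 0.0292, adjusted p = 0.292, Spearman rho = 0.49, p = 0.356, n = 6), and r = 0.73 without Ctrl replicates 2 and 5, the farthest from the Arntl median. In hCG, the largest was Arntl against Per2 with r = -0.70 (exact permutation p = 0.131, adjusted p = 0.399, rho = -0.60, p = 0.242, n = 6), and r = -0.21 without hCG replicates 1 and 3. Arntl against Dbp had r = -0.03 in Ctrl (exact permutation p = 0.956, n = 6) and -0.30 in hCG (exact permutation p = 0.532, n = 6). Without the same farthest libraries these became 0.61 and -0.60, so the Ctrl value rests on those 2 libraries.

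Across all 12 dDG libraries, after the group means were removed, the genes most like Dbp among 11127 genes were Tysnd1, Gba2 and Fbrsl1, with Pearson r of 0.94, 0.94 and 0.93. Of the other members Per1 was closest to Dbp (r = 0.82, rank 23), then Nr1d1 (r = 0.52, rank 1044). For Per1 and Dbp, hCG replicate 5 was the lowest hCG library and replicate 6, with the choroid plexus markers, the highest. Their r was not recomputed without these libraries. The genes most like Arntl were Pml, Pdcl3 and Polk (r of 0.88, 0.86 and 0.85), and of the members Cry1 (r = 0.58, rank 413) and Clock (r = 0.53, rank 645). These values describe 12 libraries that share preparation and depth, and no p is attached to them.

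The dDG table lists RefSeq transcripts, with reads split among the transcripts of a gene by estimation. The 10 members had 16 transcripts, all with a mean of at least 1 CPM. In the transcript test 3.26% of 18625 transcripts were called, 2.02% higher and 1.24% lower, and of the 16 only NM_145434, the single transcript of Nr1d1, was called (lower by log2 fold change -0.28 ± 0.06, edgeR adjusted p = 0.0326). Per3 was split among 3 transcripts. NM_011067, with 67.3% of the gene's CPM, ranged from 22.8 (median 32.8) to 43.1 CPM in Ctrl and from 31.9 (median 48.7) to 60.1 in hCG. The groups of this transcript overlapped, with 5 of 6 hCG libraries above every Ctrl library. Its log2 fold change was 0.51 ± 0.17 and was not called (edgeR adjusted p = 0.112, and 0.0407 with DESeq2). NM_001289877, with 30.5%, differed by 0.16 ± 0.33 (edgeR adjusted p = 0.846), and NM_001289878 made up 2.21%. Per1 was almost all NM_011065 (97.7%), which ranged from 78.3 (median 99.7) to 107 CPM in Ctrl and from 55.9 (median 79.0) to 84.7 in hCG. Its log2 fold change of -0.36 ± 0.10 missed the threshold (edgeR adjusted p = 0.0837). The 3 Clock transcripts, with 54.9%, 33.0% and 12.1% of the gene, spread more widely between libraries of 1 group than the gene did. NM_001289826, the main one, ran from 27.2 to 78.8 CPM within Ctrl, and none differed between groups (edgeR adjusted p from 0.788 to 0.938). The minor Arntl transcript NM_001243048 (4.85%) reached 12.6 CPM in 1 Ctrl library and had a median of 0.935 CPM.

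**Figure D2:**
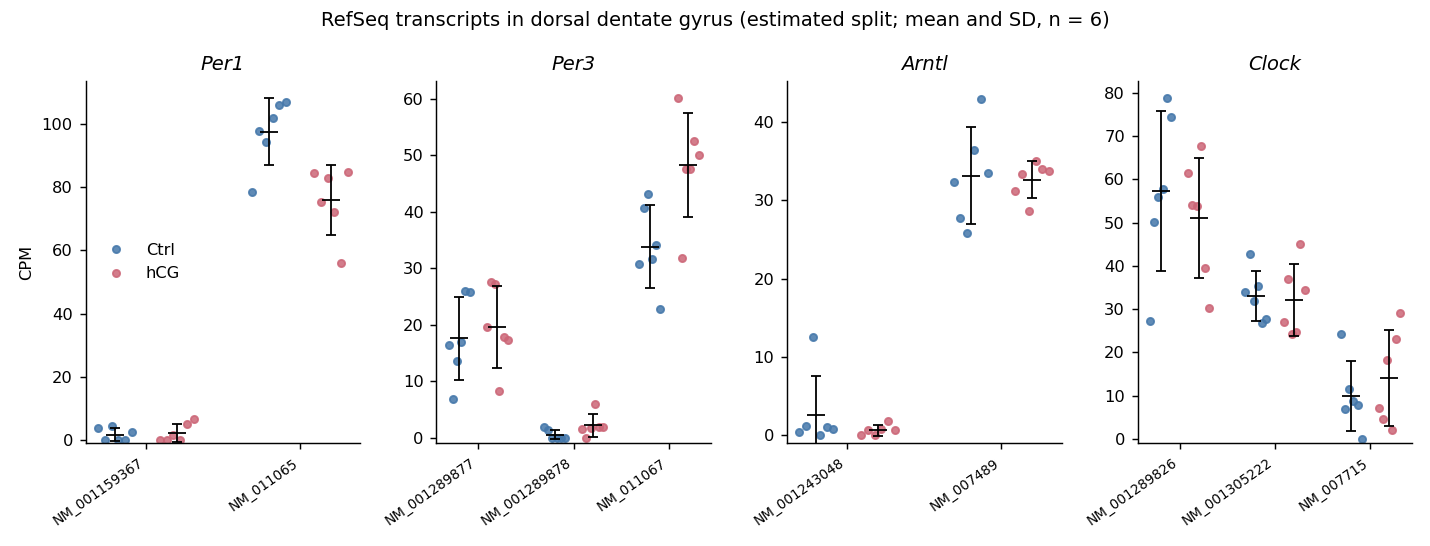
CPM of the transcripts of the 4 members with more than 1 RefSeq transcript in the dDG table, with 1 point per library (Ctrl blue, hCG red) and the mean and SD of 6 libraries. NM_011067 carries most of the Per3 difference (median 32.8 CPM in Ctrl and 48.7 in hCG), and the Clock transcripts scatter within each group.

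Other genes of the loop were read from a list of 24, which holds further activators and repressors, the kinases and ubiquitin ligases that set the life of PER and CRY proteins, and clock outputs. All 24 were tested in the dDG, and 1 was called higher and 1 lower, with a median log2 fold change of -0.02. Of all genes tested in the dDG 4.67% were called higher and 3.19% lower, 7.86% in either direction. The share called on this list was thus close to that of all genes. Csnk1e, the casein kinase that marks PER proteins for breakdown, averaged 57.1 ± 4.94 CPM in Ctrl and 66.8 ± 3.04 in hCG (SD, n = 6) and rose by 0.23 ± 0.06 (edgeR adjusted p = 0.0323). The groups overlapped, and the call held in 7 of 16 alternatives, with leaving out any of Ctrl replicates 1, 2, 3 and 6 or hCG replicates 1, 3, 4 and 6 ending it, as the replicate block did (adjusted p = 0.102). Btrc, a ubiquitin ligase subunit that recognises PER proteins so marked, averaged 131 ± 7.03 CPM in Ctrl and 112 ± 5.99 in hCG. Its groups did not overlap, as for 4.33% of all genes tested in the dDG. Btrc fell by 0.23 ± 0.05 (edgeR adjusted p = 0.0130), called in all 16 alternatives.

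Some other genes moved with the dDG groups and are given beside the clock genes. The cold-inducible RNA-binding genes Rbm3 and Cirbp were both lower. Rbm3 averaged 139 ± 9.55 CPM in Ctrl and 50.6 ± 10.9 in hCG (SD, n = 6), a log2 fold change of -1.46 ± 0.11. Cirbp averaged 61.9 ± 8.62 and 27.8 ± 3.90 CPM, a log2 fold change of -1.15 ± 0.10 (edgeR adjusted p = 5.7e-05 for both genes). Beside the counts that follow, 4.67% of all genes tested in the dDG were called higher and 3.19% lower. Of 10 activity-induced genes, 8 were lower and none higher, with a median log2 fold change of -0.77. Their summed level was 372 to 662 CPM in Ctrl and 266 to 346 in hCG. Fos and Npas4 head that list, and they fell by 0.82 ± 0.19 and 1.03 ± 0.14 (edgeR adjusted p = 0.0215 and 0.000562). Of 8 glucocorticoid-induced genes none was called; they summed to 364 to 556 CPM in Ctrl and 473 to 584 in hCG, with Fkbp5 at 0.24 ± 0.09 and Tsc22d3 at -0.09 ± 0.20 (edgeR adjusted p = 0.0932 and 0.821). Of 4 granule neuron markers, Prox1 was higher (0.36 ± 0.09, edgeR adjusted p = 0.0319) and the other 3 were not called; they summed to 623 to 1037 CPM in Ctrl and 923 to 1148 in hCG. Of 4 microglia markers, Tmem119 and C1qa were higher, and the sum ran from 128 to 153 CPM in Ctrl and from 149 to 176 in hCG. Cx3cr1 (0.19 ± 0.08) and P2ry12 (-0.001 ± 0.066) were not called (edgeR adjusted p = 0.153 and 0.995). No marker of CA pyramidal neurons, astrocytes, oligodendrocytes or endothelium was called, with 4 tested for each. The log2 fold change was below 0 for all 4 oligodendrocyte markers (median -0.38, sums of 1068 to 2636 CPM in Ctrl and 998 to 2315 in hCG) and above 0 for all 4 endothelial markers (median 0.30, sums of 78.1 to 111 and 76.6 to 162 CPM). Pyramidal neuron markers had a median of 0.01 (113 to 204 and 135 to 269 CPM), and astrocyte markers one of -0.03 (1196 to 1431 and 1216 to 1617 CPM). The pyramidal markers were spread: Fibcd1 was at 0.80 ± 0.23 (edgeR adjusted p = 0.0521), Wfs1 at 0.05, Mpped1 at -0.03 and Ociad2 at -0.21. The part of any of these in the clock gene results was not tested.

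In oocytes none of the 10 members was called. Fully grown oocytes make almost no RNA, and hold a store built up during growth. Of the 10 members 7 passed the filter on low counts, while Per2, Cry2 and Dbp did not. Among all 9564 genes tested 3.99% were called (1.33% higher, 2.67% lower). With an unadjusted p under 0.05 there were 4 of 7 members, and 18.9% of all genes. DESeq2 called 1 member, Per3. The log2 fold change was below 0 for 3 of the 7, and for 49.4% of all genes. No tested member had groups without overlap, which 3.04% of all genes had.

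Of the activators, Arntl ranged from 127 (median 166) to 201 CPM in Ctrl oocytes and from 186 (median 221) to 282 in hCG oocytes. All 6 hCG libraries were above the Ctrl median, with overlap at the lower end, and the log2 fold change was 0.42 ± 0.15 (edgeR adjusted p = 0.130). Clock ranged from 106 (median 143) to 172 CPM in Ctrl and from 131 (median 173) to 216 in hCG, a log2 fold change of 0.29 ± 0.16 (edgeR adjusted p = 0.343). Cry1 ranged from 244 (median 316) to 392 CPM in Ctrl and from 357 (median 383) to 449 in hCG. Again every hCG library was above the Ctrl median, while Ctrl replicate 3 was higher than most of them, and the log2 fold change was 0.31 ± 0.13 (edgeR adjusted p = 0.178).

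Per3 was the member nearest to a call. It ranged from 13.5 (median 25.6) to 30.6 CPM in Ctrl oocytes and from 7.70 (median 12.8) to 18.5 in hCG oocytes. All 6 hCG libraries were below the Ctrl median, and the overlap came from Ctrl replicate 6, the lowest of its group. Per3 differed by a log2 fold change of -0.85 ± 0.25, interval -1.34 to -0.37 (edgeR adjusted p = 0.0608). The difference passed the threshold without Ctrl replicate 6 (-0.99, adjusted p = 0.0295), without hCG replicate 6 (-0.97, adjusted p = 0.0493) and with DESeq2 (-0.85, adjusted p = 0.0229).

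The other members were scarce in oocytes, where 3 counts correspond to 0.433 to 1.26 CPM. Nr1d1 ranged from 3.19 (median 6.08) to 7.69 CPM in Ctrl and from 3.42 (median 3.97) to 6.36 in hCG, a log2 fold change of -0.42 ± 0.32 (edgeR adjusted p = 0.524). Nr1d2 ranged from 0.391 (median 1.80) to 3.83 CPM in Ctrl and from 2.14 (median 4.15) to 4.74 in hCG, a log2 fold change of 0.97 ± 0.46 (edgeR adjusted p = 0.261). Per1 ranged from 0.319 (median 2.72) to 3.71 CPM in Ctrl and from 1.23 (median 1.92) to 2.50 in hCG, a log2 fold change of -0.25 ± 0.51 (edgeR adjusted p = 0.844). For these 3 the groups overlapped, and the Ctrl values were low in Per1 in the shallow Ctrl replicates 2 and 4. Per2 had 19 counts over the Ctrl and 31 over the hCG libraries, Cry2 had 7 and 1, and Dbp had 9 counts in Ctrl replicate 3 and 0 in the other 11 libraries. A difference in these 3 genes was not detectable at this depth.

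Of the 24 other clock genes 19 were tested in oocytes, and 2 were lower, with a median log2 fold change of -0.02. Of all genes tested in oocytes 2.67% were called lower, and 3.99% in either direction. Npas2, the paralog that can stand in for Clock, averaged 42.2 ± 8.10 CPM in Ctrl and 19.96 ± 3.95 in hCG oocytes (SD, n = 6). Its groups did not overlap, as for 3.04% of all genes tested in oocytes. Npas2 fell by 1.09 ± 0.19 (edgeR adjusted p = 0.00267), called in all 17 alternatives. Ciart, a repressor of the ARNTL and CLOCK pair, averaged 14.5 ± 6.31 CPM in Ctrl and 5.76 ± 1.36 in hCG. It fell by 1.34 ± 0.35 (edgeR adjusted p = 0.0331), and the groups overlapped because Ctrl replicate 4 had 2.87 CPM. The Ciart call held in 9 of 17 alternatives and ended without Ctrl replicate 2, 3, 5 or 6 or hCG replicate 1, 2, 4 or 6, with an adjusted p of up to 0.0817.

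**Figure D3:**
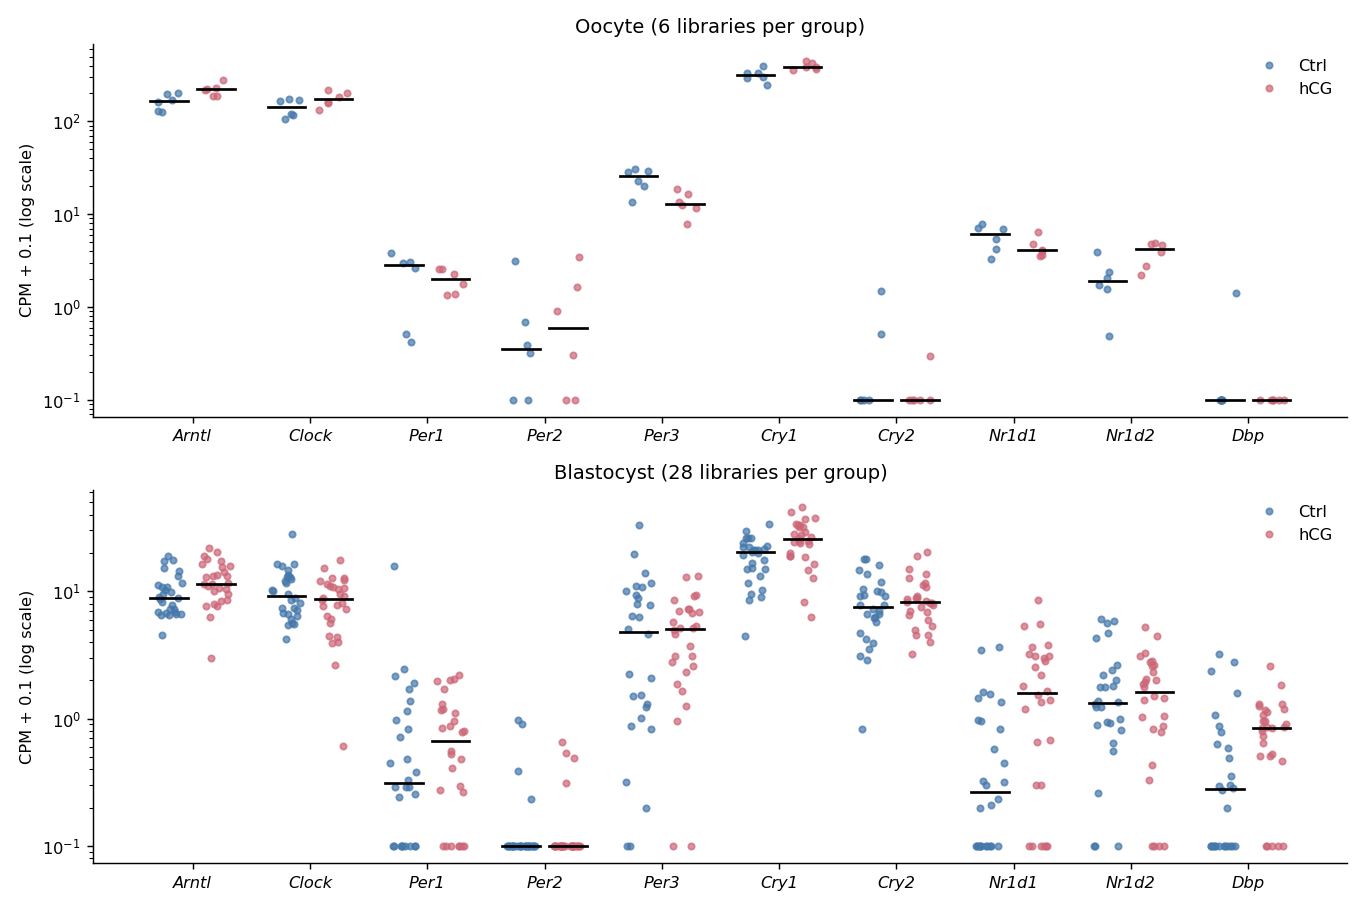
CPM plus 0.1, on a log axis, of the 10 clock genes in oocyte libraries (upper panel, 6 per group) and blastocyst libraries (lower panel, 28 per group), with 1 point per library and the group median as a black line; points at the bottom are libraries at 0. Groups overlap for every gene, and Dbp and Cry2 are at 0 in most oocyte libraries (Dbp in 11 of 12).

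In blastocysts, 5 members were tested (Arntl, Clock, Per3, Cry1 and Cry2) and none was called by limma on log2(CPM + 1), with or without the 5 hCG libraries that held both kinds of sex-linked RNA. Among all 10850 genes 16.1% were called, 8.72% higher and 7.4% lower, and no gene had groups of 28 libraries without overlap. With an unadjusted p under 0.05 there was 1 of 5 members, Cry1, and 30.7% of all genes. The log2 fold change was below 0 for 1 of the 5, Clock, and for 46.5% of all genes. Cry1 ranged from 4.37 (median 20.1) to 33.3 CPM in Ctrl and from 6.20 (median 25.5) to 45.6 in hCG. Its lowest Ctrl value was that of Ctrl replicate 26, which also had the lowest Ctrl values of Cry2 and Clock and the highest of Per3. That library had 10720 genes detected, where Ctrl libraries ran from 10382 to 13836, and a fit without it was not run. The Cry1 groups overlapped widely, with 19 of 28 hCG libraries above the Ctrl median. The log2 fold change of Cry1 was 0.44 ± 0.16, interval 0.12 to 0.76 (limma adjusted p = 0.0526). It was called in 5 of 8 alternatives, edgeR on estimated reads among them (0.46, adjusted p = 0.0404), with adjusted p-values from 0.0124 to 0.103 over the 8. The highest was that without the 5 named hCG libraries, where the difference was 0.41. The alternatives that called Cry1 included the deposited values not scaled to the total, where 99.6% of all called genes were higher. They also included the replicate block, whose numbers do not pair the samples. Both are weak checks of a higher call.

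The remaining tested members were further from a call. Arntl ranged from 4.401 (median 8.79) to 18.8 CPM in Ctrl and from 2.88 (median 11.4) to 21.6 in hCG, a difference of 0.28 ± 0.15 (limma adjusted p = 0.182). Clock ranged from 4.13 (median 9.03) to 28.2 CPM in Ctrl and from 0.509 (median 8.63) to 17.5 in hCG, a difference of -0.28 ± 0.18 (limma adjusted p = 0.290). Cry2 ranged from 0.729 (median 7.44) to 17.9 CPM in Ctrl and from 3.10 (median 8.07) to 20.2 in hCG, a difference of 0.15 ± 0.19 (limma adjusted p = 0.613). In these 3 genes the hCG libraries covered most of the Ctrl range. Per3 was at 0 in some libraries of both groups and reached 33.3 CPM in Ctrl (median 4.72) and 12.99 in hCG (median 4.95), a difference of 0.08 ± 0.32 (limma adjusted p = 0.899).

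The other 5 members were too low for the filter, with 3 counts corresponding to 0.276 to 0.986 CPM. Reads were present in 19 Ctrl and 21 hCG libraries for Per1, in 4 and 4 for Per2, in 25 and 24 for Nr1d2, in 16 and 23 for Dbp, and in 17 and 22 for Nr1d1, of 28 each. Nr1d1 had a median of 0.166 CPM in Ctrl and 1.49 in hCG, with highest values of 3.54 and 8.40. With no filter on low values it was called higher (0.76 ± 0.22, limma adjusted p = 0.0220), the 1 member for which the filter decided. Dbp had medians of 0.181 and 0.749 CPM and was not called with no filter (0.29 ± 0.14, limma adjusted p = 0.235).

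Of the other clock genes 18 of 24 were tested in blastocysts, 3 were higher and 1 was lower, with a median of 0.23 beside 0.0264 over all genes. Of all genes tested in blastocysts 8.72% were called higher and 7.4% lower. Csnk1e averaged 115 ± 39.4 CPM in Ctrl and 146 ± 32.8 in hCG (SD, n = 28) and rose by 0.39 ± 0.11 (limma adjusted p = 0.0116), called in all 8 alternatives. Nfil3, the repressor that competes with DBP for D-boxes, had medians of 1.90 CPM in Ctrl and 3.84 in hCG and rose by 0.66 ± 0.23 (limma adjusted p = 0.0372), and Bhlhe41, a repressor at E-boxes, had medians of 2.19 and 5.35 CPM and rose by 0.73 ± 0.26 (limma adjusted p = 0.0444). These calls held in 5 and 2 of 8 alternatives, and both ended without hCG replicates 1, 3, 4, 22 and 23. Those that kept the Nfil3 call included the replicate block and the deposited values not scaled to the total. Wee1, a cell cycle kinase gene under clock control in other tissues, averaged 26.5 ± 7.59 CPM in Ctrl and 18.5 ± 6.34 in hCG and fell by 0.51 ± 0.13 (limma adjusted p = 0.00538), called in 7 of 8 alternatives and not with deposited values that were not scaled to the total (-0.11, adjusted p = 0.590).

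**Figure D4:**
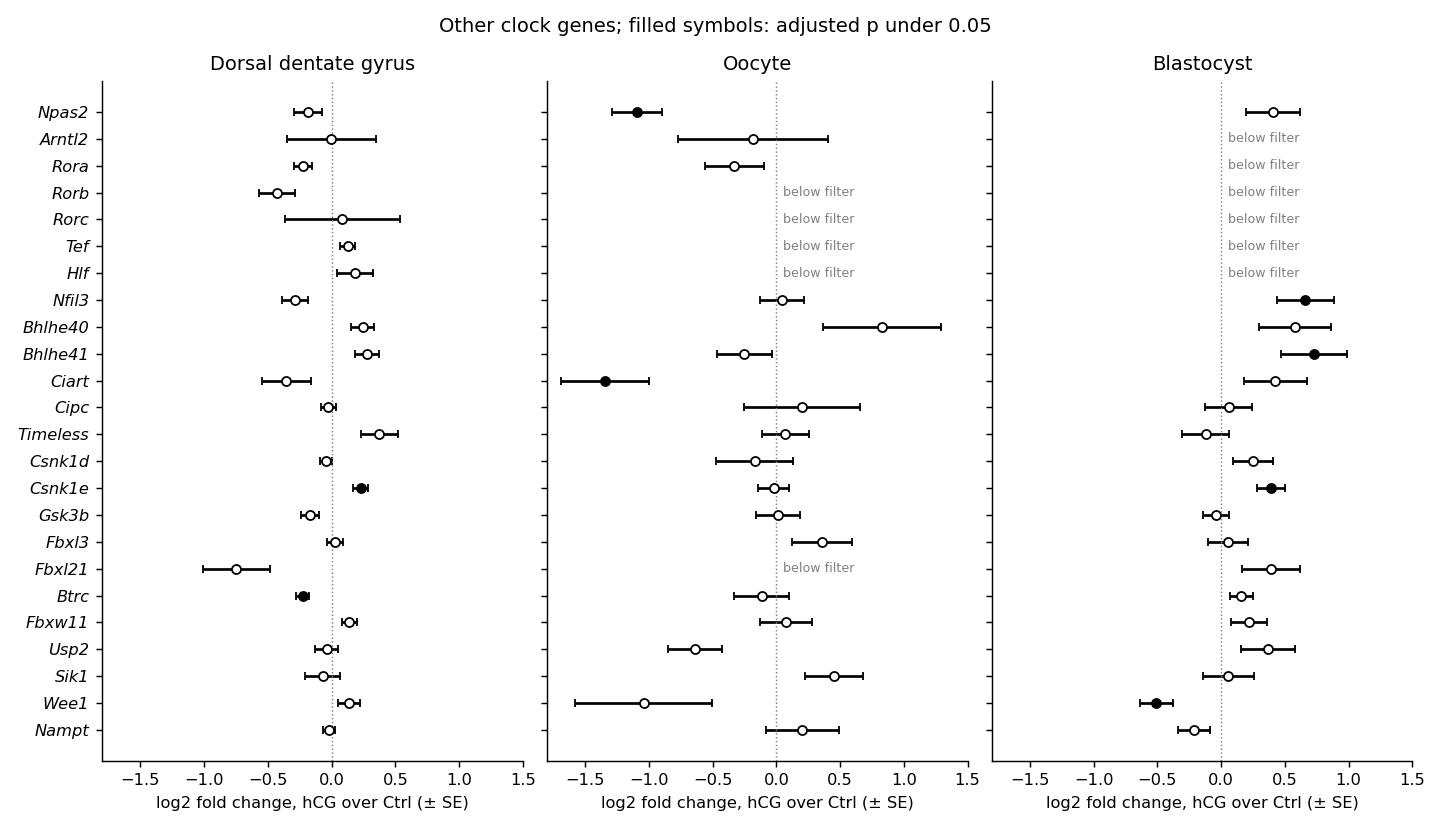
Log2 fold change of hCG over Ctrl with its SE for 24 other clock genes in the dDG and oocytes (edgeR) and blastocysts (limma); filled symbols have an adjusted p under 0.05. Filled symbols are Csnk1e and Btrc in the dDG, Npas2 and Ciart in oocytes, and Nfil3, Bhlhe41, Csnk1e and Wee1 in blastocysts.

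Whether the hCG effect differed between materials was tested on log2(CPM + 1) in both tables of a pair. For Per3 it did between dDG and oocytes: the log2 fold change was 0.42 ± 0.08 in the dDG and -0.80 ± 0.24 in oocytes, a difference of 1.22 ± 0.25 (Wald test on limma fits, adjusted p = 0.00515). Of all 7669 genes tested in both, 5.58% differed. No other member was called in any pair of materials, with 11% of genes called between dDG and blastocysts and 12.4% between oocytes and blastocysts. The next nearest was Arntl, whose hCG effect was lower by 0.53 ± 0.18 in the dDG than in oocytes (limma adjusted p = 0.0727). Of the other clock genes, Npas2 differed between oocytes and dDG (hCG effect 0.87 ± 0.22 higher in the dDG, limma adjusted p = 0.0148). It differed too between oocytes and blastocysts (-1.45 ± 0.28, limma adjusted p = 0.000477). Ciart (-1.47), Usp2 (-1.06) and Bhlhe41 (-0.97) differed too between oocytes and blastocysts, with the lower hCG effect in oocytes. Between dDG and blastocysts, Nfil3 (-0.93), Fbxl21 (-0.78) and Btrc (-0.39) had the lower effect in the dDG and Wee1 (0.65) the higher. With a pseudocount of 0.1 in place of 1, the calls of Bhlhe41 (-1.24, limma adjusted p = 0.0656) and Fbxl21 (-1.35, limma adjusted p = 0.0673) ended, and Nfil3 moved to -1.49 and was still called. Per3, Npas2 (in both pairs), Ciart, Usp2, Btrc and Wee1 were called at that pseudocount too.

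**Figure D5:**
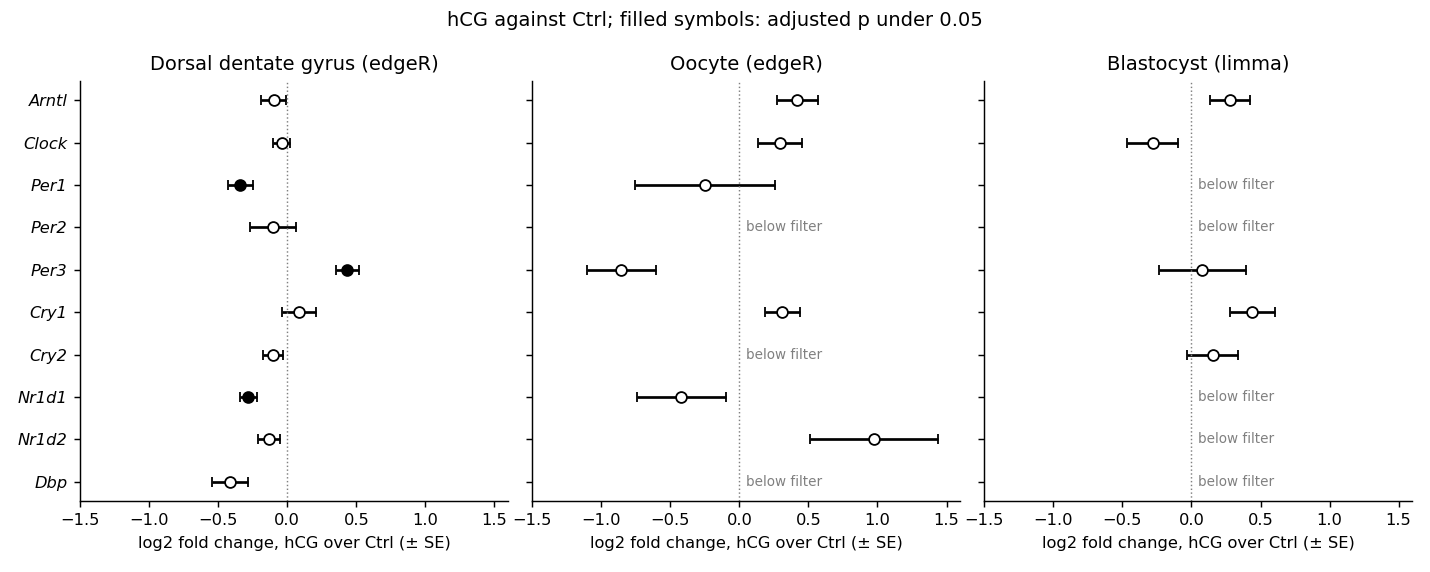
Log2 fold change of hCG over Ctrl with its SE for the 10 clock genes in the dDG, oocytes and blastocysts; filled symbols have an adjusted p under 0.05 and genes under the filter on low values are marked. Per3 lies at 0.43 in the dDG and at -0.85 in oocytes, and the filled symbols are Per1, Per3 and Nr1d1 in the dDG.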

How the data were processed

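RNA tables of 80 samples were used, and 44 samples of bisulfite sequencing were not analysed here. The deposited oocyte table holds counts per gene symbol. The deposited dDG table holds expected counts per RefSeq transcript, estimated with decimals, which were rounded for the transcript test, and summed by gene and rounded for the gene test. The deposited blastocyst table holds a signal: each library was multiplied by its own factor, and how that was set is not given in the sources used here. From 89.0% to 93.5% of the values in each blastocyst column came out as multiples (tolerance 0.005) of 1 step, 39.3 to 244 by library, so dividing by the total takes the factor out. Per the submitters' processing notes, STAR 2.7.6a, HTSeq 0.12.4, TopHat, SAMtools 1.19.1, Bowtie2, Trimmomatic 0.32 and Trim Galore 0.6.4 were used with mm10 and GRCm38, with no role given. Symbols that had turned into dates (23 in the oocyte and 25 in the dDG table) stayed in the library totals.

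Counts were tested with edgeR 4.0.16 (R 4.3.3; TMM, default filter on low counts, quasi-likelihood test with robust fitting), and blastocyst values with limma 3.58.1 (trend, robust) on log2 of CPM plus 1, which understates the change of low genes. Genes were adjusted by Benjamini-Hochberg over each whole table and called at 0.05 whatever their fold. Approximate 95% intervals rest on the SE. Materials were compared by a Wald test of limma's log2 fold changes, and correlations by exact two-sided permutation over all pairings (SciPy 1.17.1). The tests were tried on simulated data. The changes planted there were larger than those called among clock genes in the dDG, so changes of that size were not covered. The 10 genes, the lists and the tests were chosen with earlier results of these data known. All 10 were named in each material, of the other clock genes those called, of dDG transcripts those that averaged 1 CPM or more, and for Dbp and Arntl the 3 genes of highest correlation among those of at least 5 CPM. Counting intervals and floors (3 counts) cover counting error only. The replicate numbers did not pair the samples: deviations of same-numbered libraries correlated at -0.16 to 0.14 in the dDG, -0.19 to 0.21 in oocytes and -0.21 to 0.17 in blastocysts. No 2 libraries of a group agreed within sampling noise. Alternatives were DESeq2 1.42.0, other scaling, filters and pseudocounts, a replicate block, and leaving out libraries.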

Additional observations from a re-analysis of the deposited data

Results flagged for a closer look

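In groups of 6 libraries, a library whose gap to its nearest neighbour was a large part of the group's range was looked for. This was done in 39 groups, and 5 were found in 4 libraries. Chance gives about 1 in 20, but that rate does not hold where most libraries are at 0 or at a few counts. All but the Clock flag were in oocyte genes below the filter on low counts, so no excess over chance can be read from them. Clock was 108 CPM in dDG hCG replicate 5, against 94.0 to 96.5 CPM in the other hCG libraries. Per2 was 2.99 CPM in oocyte Ctrl replicate 1, against 0 to 0.587 in the others. Cry2 was 1.38 CPM in the same oocyte library, against 0 to 0.407 in the others, and 0.199 CPM in oocyte hCG replicate 6, against 0. Dbp was 1.31 CPM in oocyte Ctrl replicate 3, against 0 in the others.

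The hCG effect on Per3 differed between materials, 1.22 higher on the log2 scale in the dDG than in oocytes by the test of the difference itself.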

How the results depend on the processing

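Of 481 values of single genes and transcripts under alternatives, 431 kept their call and direction, 34 lost a call, 13 gained one and 3 changed sign. Those were blastocyst Per3 (-0.051 with a pseudocount of 10, -0.34 with edgeR) and blastocyst Clock (0.072 with deposited values not scaled). Causes were not tested. Lower calls in the dDG were 706 with DESeq2. In oocytes DESeq2 gave 260 higher and 418 lower genes and 1 lower clock gene. Without the shallow oocyte Ctrl replicates 2 and 4, chosen after seeing the data, 271 genes were higher.

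Clock genes called higher in blastocysts, 0 as reported, were 1 with a pseudocount of 10, column totals only, edgeR or no filter, and 2 with deposited values not scaled. That last setting moved the median of all genes from 0.03 to 0.49 and gave 3655 higher and 15 lower genes, 99.6% higher against 54.1% as reported. edgeR gave 576 higher blastocyst genes, and leaving out hCG replicates 1, 3, 4, 22 and 23 gave 503 lower. For dDG transcripts DESeq2 gave 881 higher and 729 lower, with 1 and 2 of the clock genes, and no filter gave 240 and 148.

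With the replicate block, for numbers that do not pair the samples, 388 genes were higher and 195 lower in the dDG, 1 clock gene was lower there and 1 higher in blastocysts, and 75 transcripts were higher and 24 lower. Of the libraries, 0 of 6 dDG Ctrl, 2 of 6 oocyte Ctrl and 1 of 28 blastocyst Ctrl correlated best with their own number.

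Leaving out 1 library gave 395 to 684 higher and 254 to 547 lower dDG genes, the fewest without Ctrl replicate 6; both counts also fell by over 1.5 times without Ctrl replicate 2 or 3, and the lower count without hCG replicate 4. Clock genes called lower there were 1 to 3. In oocytes it gave 70 to 292 higher and 167 to 365 lower genes and 0 to 1 lower clock genes. The higher count moved by over 1.5 times without Ctrl replicate 3, 4 or 5 or hCG replicate 1 or 4, and the lower count without Ctrl replicate 3. The 10 correlations kept their sign and call with library totals only. Leaving out single blastocysts was not run, since groups there hold 28.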
